A study of Mus musculus with 91 samples.

Results

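Livers of mice given cyproterone acetate (CPA) were compared with livers of mice given 1,4-dichlorobenzene (DCB), without passing through the vehicle controls. The members are the 10 arrays of these groups, 5 for each compound, out of 91 liver arrays in 19 groups, and every probe set that carries 1 gene symbol was tested. All mice were adult males on a C57BL background and were dosed by oral gavage each day for 28 days, with CPA at 160 mg/kg or with DCB at 600 mg/kg. Mice given corn oil alone for 28 days (n = 5) serve here only to show the level without a compound. The doses differ, so compound and dose cannot be told apart in any value below. Mice were placed in groups of 5 at random, per the study's design text, and 1 array was run for each mouse. Whole liver was used, and fewer cells of a type and less RNA per cell cannot be told apart in such tissue.

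CPA is a synthetic steroid, used as an antiandrogen and progestin, that in rodent liver activates the pregnane X receptor (PXR). DCB is a chlorinated aromatic hydrocarbon known from moth repellents and air fresheners, and it causes liver tumours in mice. PXR and its relative, the constitutive androstane receptor (CAR), are nuclear receptors of the hepatocyte that sense foreign chemicals and switch on overlapping sets of cytochrome P450, conjugation and transport genes. Both compounds enlarge the rodent liver, so a direct comparison asks in which genes a pair of inducers of drug metabolism differ.

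Values are log2 expression, on which a difference of 1 is a doubling. Array medians were 5.19 to 5.24 in CPA livers, 5.20 to 5.25 in DCB livers and 5.19 to 5.25 in corn oil livers. CPA liver 2 and DCB liver 1 stood apart, with a mean correlation over probe sets of 0.973 and 0.980 with their own group, against 0.986 to 0.989 in the other 8 livers. The counts that change without these 2 livers, a setting chosen after seeing the data, are given beside each list. That fit called more genes in general, 1.12% of all genes higher and 1.79% lower. List counts from it are to be read against these shares. These 2 livers correlated with each other at 0.982, above the mean of either with its own group, and their deviations from their group means correlated at 0.570 over probe sets. Hepatocyte markers overlapped between the groups. Their mean level was 12.88 to 13.42 in CPA livers, against 12.93 to 13.36 in DCB livers, with 13.37 to 13.48 in corn oil livers, and none of the 14 passed. Alb, the gene of serum albumin, had 15.07 to 15.20 in CPA livers, against 15.16 to 15.26 in DCB livers.

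The comparison found 212 of 18193 genes with an adjusted p below 0.05 (limma, Benjamini-Hochberg over all 34945 probe sets), which is 1.17% of the genes. Of these 71 were higher in CPA livers than in DCB livers (0.39%) and 141 were lower (0.775%), so lower genes outnumbered higher ones. At least 2-fold differences were found in 41 of the higher genes (0.225% of all genes) and 77 of the lower genes (0.423%). Values of the groups did not overlap for 576 genes (3.17%), and 200 of the called genes were among them. Counted by probe set, 308 of 34945 were called (0.881%). Without CPA liver 2 and DCB liver 1 the count was 529 genes (2.91%; 1.12% higher and 1.79% lower), which held 207 of the 212, and leaving out any 1 liver gave 118 to 346 genes, the lowest without DCB liver 5 and the highest without CPA liver 2. The median difference of all genes was 0.0036.

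The gene that differed most was Sult1e1, the estrogen sulfotransferase that inactivates estrogens by adding a sulfate group. Sult1e1 had log2 values of 12.30, 9.25, 7.71, 12.33 and 9.01 in CPA livers 1 to 5, against 3.78, 3.93, 3.59, 3.86 and 4.18 in DCB livers 1 to 5. Vehicle livers had 3.56 to 3.97, so DCB livers lay near the vehicle level while each CPA liver was far above it. The difference was 6.25 ± 0.73, adjusted p = 0.001 (SE, n = 5 each). The CPA livers themselves spread widely, with livers 1 and 4 highest and liver 3 lowest. Moxd1, a copper monooxygenase related to dopamine beta-hydroxylase, had 7.00, 11.08, 11.89, 9.99 and 8.64 in CPA livers 1 to 5, against 4.41, 4.04, 4.00, 3.96 and 3.97 in DCB livers 1 to 5. Livers given corn oil had 3.87 to 4.23, and the difference was 5.64 ± 0.68, adjusted p = 0.00118. Here CPA livers 2 and 3 were highest and liver 1 was lowest, so the order of the CPA livers was not that of Sult1e1.

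Nebl, which encodes the actin-binding protein nebulette, had a smaller standard error of the difference than Sult1e1 or Moxd1. Nebl had 8.79, 7.81, 7.78, 8.31 and 7.91 in CPA livers 1 to 5, against 4.26, 4.40, 4.07, 3.75 and 4.19 in DCB livers 1 to 5, with 3.81 to 4.49 in corn oil livers and a difference of 3.98 ± 0.20, adjusted p = 3.63e-07. DCB livers lay within 1 log2 unit of the vehicle livers. Every CPA liver lay above every DCB liver, as the rule for the highest genes required. The 2 other Nebl probe sets were dim and did not pass (differences -0.08 and 0.26). Dct, dopachrome tautomerase of the melanin pathway, had 11.07, 10.85, 10.81, 10.91 and 10.67 in CPA livers 1 to 5, against 8.37, 6.21, 6.45, 8.41 and 5.41 in DCB livers 1 to 5, a difference of 3.89 ± 0.48, adjusted p = 0.00137. Corn oil livers had 7.15 to 8.56, which overlapped the DCB livers.

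Cyp17a1, the enzyme that makes androgen precursors from pregnenolone and progesterone, had 12.48, 9.33, 9.83, 11.89 and 11.28 in CPA livers 1 to 5, against 6.52, 7.99, 7.69, 7.24 and 7.72 in DCB livers 1 to 5. Vehicle livers had 7.61 to 9.27, all below the lowest CPA liver, and the difference was 3.53 ± 0.51, adjusted p = 0.00447. Cav1, the coat protein of caveolae, had 9.47, 9.64, 11.07, 9.41 and 10.75 in CPA livers 1 to 5, against 6.92, 6.65, 6.49, 7.99 and 6.58 in DCB livers 1 to 5 (3.14 ± 0.36, adjusted p = 9.04e-04). The eosinophil-type ribonuclease gene Rnase2a had 5.24, 7.49, 7.47, 7.71 and 5.14 in CPA livers 1 to 5, against 3.39, 3.82, 3.60, 3.62 and 3.74 in DCB livers 1 to 5 (2.98 ± 0.46, adjusted p = 0.00684), with CPA livers 2, 3 and 4 high and livers 1 and 5 closer to DCB livers. No DCB liver reached the CPA range for these genes, which was a condition for a place among the 12 highest.

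Acnat2, a peroxisomal acyltransferase that joins fatty acids to amino acids, averaged 10.24 ± 0.53 in CPA livers and 7.29 ± 0.65 in DCB livers (SD, n = 5 each; 2.96 ± 0.31, adjusted p = 4.07e-04). Scara5, a ferritin receptor, averaged 9.19 ± 0.56 in CPA livers and 6.28 ± 0.81 in DCB livers (difference 2.91 ± 0.35, adjusted p = 0.00124), with a mean of 7.85 in corn oil livers, between the means of the groups. Its other probe set, which was dim, did not pass (0.01). Myom3, a myomesin of the muscle sarcomere, averaged 6.34 ± 1.40 in CPA livers and 3.76 ± 0.12 in DCB livers (difference 2.58 ± 0.49, adjusted p = 0.0253), and its CPA values were high in livers 1 and 4. With 1 liver left out at a time, Lcn2 did not pass without CPA liver 5 or DCB livers 1, 3, 4 or 5 (adjusted p up to 0.114) and Myom3 did not pass without CPA livers 4 or 5 or DCB livers 2, 3, 4 or 5 (adjusted p up to 0.076). Lcn2 and Orm3, which complete the 12, are described with the acute phase genes.

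**Figure D1:**
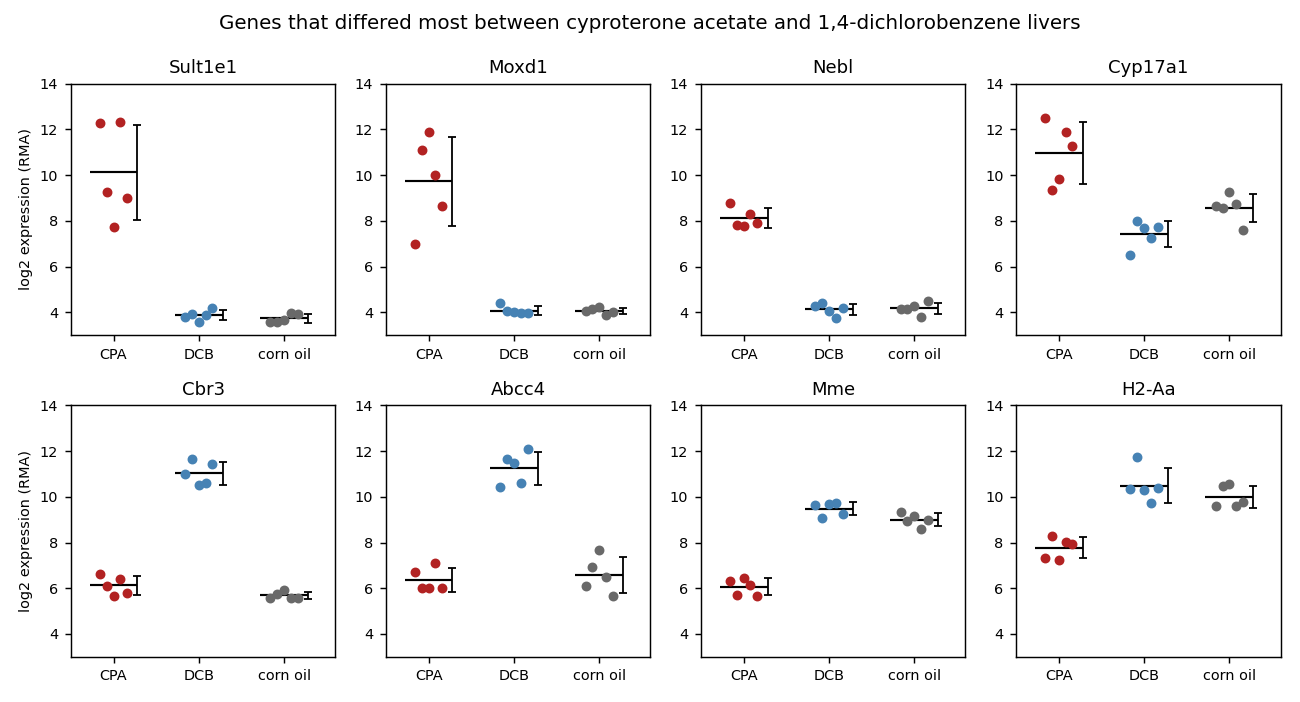
Log2 expression of 8 genes in each liver (points; CPA, DCB and corn oil, n = 5 each), with the group mean (line) and SD (bar at its right). Sult1e1, Moxd1, Nebl and Cyp17a1 are higher in every CPA liver than in any DCB liver, and Cbr3, Abcc4, Mme and H2-Aa are lower in every CPA liver. All 8 are among the highest and lowest genes, which were picked for values without overlap.

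Genes of steroid hormone metabolism passed in both directions. Of 21 measured members 2 were higher, 2 were lower and 17 did not pass, with a median of 0.10, against 1.17% of all genes called. Without CPA liver 2 and DCB liver 1 the counts were 5 and 2, against 2.91% of all genes called. The higher ones were Sult1e1 and Cyp17a1. The lower ones were Serpina6, the corticosteroid-binding globulin secreted by the liver, and Hsd17b11, a hydroxysteroid dehydrogenase of lipid droplets. Serpina6 had 8.79 to 9.64 in CPA livers, against 10.59 to 11.24 in DCB livers (-1.62 ± 0.18, adjusted p = 6.10e-04), with 10.99 to 11.65 in corn oil livers, so CPA livers were the ones away from the vehicle level. Hsd17b11 differed by -0.92 ± 0.16, adjusted p = 0.0161. In fits without 1 of the livers, Hsd17b11 did not pass without CPA liver 4 or DCB livers 2, 3 or 5 (adjusted p up to 0.0533). The estrogen receptor gene Esr1 did not pass (0.67 ± 0.26, adjusted p = 0.366). Among 12 sulfotransferases, of which Sult1e1 was again 1, no other member passed, and the median was 0.52; without CPA liver 2 and DCB liver 1, 2 were higher.

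Some genes whose liver level differs between the sexes passed, where 0.39% of all genes were higher and 0.775% lower. Of 20 male-biased genes 2 were higher, namely Susd4, a complement regulator, and C6, a component of the membrane attack complex, and none was lower; without CPA liver 2 and DCB liver 1, 2 were higher and 2 lower. Susd4 had 6.52 to 8.60 in CPA livers, against 5.04 to 7.01 in DCB livers (1.89 ± 0.40, adjusted p = 0.047), with 7.38 to 8.84 in corn oil livers. C6 had 10.32 to 11.54 in CPA livers, against 9.29 to 9.99 in DCB livers (1.10 ± 0.23, adjusted p = 0.0393), with 10.53 to 10.95 in corn oil livers. For both genes CPA livers overlapped the vehicle livers, and every DCB liver was below every vehicle liver. For Susd4 the CPA and DCB livers overlapped. Of 17 female-biased genes Cyp17a1 was higher, and Cd36 and the organic anion transporter Slc22a27 were lower, the second by -0.51 ± 0.09, adjusted p = 0.0141, on a dim probe set with 3.78 to 4.81 in corn oil livers; without CPA liver 2 and DCB liver 1, 2 were higher and 2 lower. Growth hormone acts on the liver through STAT5, and of 11 genes of that pathway Igf1, the circulating growth factor, was higher (0.48 ± 0.10, adjusted p = 0.035). When single livers were left out, Susd4 did not pass without CPA livers 3, 4 or 5 or DCB livers 2, 3 or 5 (adjusted p up to 0.142), C6 passed only without CPA livers 2 or 5 (adjusted p up to 0.121) and Igf1 did not pass without CPA livers 1, 3 or 4 or DCB livers 3, 4 or 5 (adjusted p up to 0.114). In the fit to all 91 arrays Slc22a27 (adjusted p = 0.625) did not pass.

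The largest negative differences were in Cbr3, a carbonyl reductase, and Abcc4, the efflux pump MRP4 that exports conjugates and bile acids to the blood. Cbr3 had 6.63, 6.12, 5.65, 6.42 and 5.81 in CPA livers 1 to 5, against 10.99, 11.64, 10.50, 10.60 and 11.43 in DCB livers 1 to 5. Livers given corn oil had 5.56 to 5.95, so CPA livers stayed near the vehicle level while DCB livers were far above it. The difference was -4.91 ± 0.24, adjusted p = 3.63e-07. Abcc4 had 6.70, 6.00, 6.02, 7.10 and 6.00 in CPA livers 1 to 5, against 10.41, 11.64, 11.47, 10.62 and 12.10 in DCB livers 1 to 5, with 5.65 to 7.69 in corn oil livers and a difference of -4.89 ± 0.32, adjusted p = 4.61e-06. The same order held for Mgst2, a microsomal glutathione transferase that also makes leukotrienes, with 4.55 to 4.76 in CPA livers, against 7.10 to 8.37 in DCB livers (-3.22 ± 0.21, adjusted p = 4.61e-06) and 4.46 to 4.74 in corn oil livers. Its relative Mgst3 had 8.78 to 9.91 in CPA livers, against 10.99 to 12.01 in DCB livers (-2.42 ± 0.24, adjusted p = 3.28e-04), and its other probe set did not pass (-0.52).

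Cbr3 and Abcc4 are on the list of targets of NRF2, the transcription factor that answers oxidants and electrophiles. Of 29 measured NRF2 targets none was higher, 6 were lower and 23 did not pass, with a median of -0.41. Over all genes 0.775% were lower, and the median was 0.0036. The counts of the list were the same without CPA liver 2 and DCB liver 1. The others that were lower were the glutathione transferases Gsta2 (-1.72 ± 0.35, adjusted p = 0.0366), Gsta4 (-1.52 ± 0.20, adjusted p = 0.00209) and Gstm4 (-1.27 ± 0.23, adjusted p = 0.0203), and Ugdh (-0.75 ± 0.12, adjusted p = 0.00833), which makes the glucuronic acid donor. Gsta4 averaged 10.96 ± 0.48 in CPA livers and 12.48 ± 0.19 in DCB livers (SD, n = 5 each) and 10.94 in corn oil livers. Averaged over its members, the list had 10.06 to 10.64 in CPA livers, against 10.78 to 11.48 in DCB livers, with 9.82 to 10.16 in corn oil livers. No CPA liver reached the lowest DCB liver. Without single livers, Gsta2 did not pass without CPA livers 3 or 5 or DCB livers 2, 3, 4 or 5 (adjusted p up to 0.107) and Gstm4 did not pass without CPA liver 5 or DCB livers 2, 4 or 5 (adjusted p up to 0.066). Members of the Gsta and Gstm families have close sequences, so signal may be shared between their probe sets.

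NRF2 binds the antioxidant response element, and its core was searched as TGACNNNGC on both strands in the RefSeq promoters (build GRCm38.p6, 250 bases before to 50 after each gene start). Of the 6 lower NRF2 targets 5 had a promoter there and 2 held the core, Abcc4 and Ugdh, whose promoters are shown because both genes were lower in CPA livers. The core stood in 16.2% of 14452 genes with a promoter, in 24.3% of 111 lower genes and in 3.51% of 57 higher genes. A match is a description and not a shown binding site. Capitals mark the core or its reverse complement. The Abcc4 promoter shown lies at chr14:118706170-118706469 and that of Ugdh at chr5:65435793-65436092, both on the minus strand. The match starts 25 bases before the gene start in this Abcc4 promoter, and 132 and 94 bases before it in Ugdh. The other Abcc4 promoter, at chr14:118676882-118677181, is not shown and also holds the core, 23 bases before its start.
Abcc4: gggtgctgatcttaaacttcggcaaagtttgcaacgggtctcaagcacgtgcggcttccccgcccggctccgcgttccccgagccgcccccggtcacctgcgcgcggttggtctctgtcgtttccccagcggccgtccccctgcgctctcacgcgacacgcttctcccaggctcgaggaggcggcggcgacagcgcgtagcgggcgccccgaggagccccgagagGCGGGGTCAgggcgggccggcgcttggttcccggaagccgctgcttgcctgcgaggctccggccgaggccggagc
Ugdh: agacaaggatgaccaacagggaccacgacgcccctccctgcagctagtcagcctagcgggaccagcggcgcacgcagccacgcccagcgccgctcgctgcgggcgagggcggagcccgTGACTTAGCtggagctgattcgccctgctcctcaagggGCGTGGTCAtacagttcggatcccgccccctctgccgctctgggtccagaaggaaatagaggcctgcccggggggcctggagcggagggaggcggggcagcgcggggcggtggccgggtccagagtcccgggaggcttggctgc

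Cyp2b10, the classic CAR target, had 13.02, 9.76, 10.71, 12.72 and 11.24 in CPA livers 1 to 5, against 11.92, 12.35, 12.09, 12.30 and 13.19 in DCB livers 1 to 5. Corn oil livers had 5.58 to 6.19, so every treated liver was several log2 units higher, and CPA livers 2 and 3 were the lowest of the 10. The difference was -0.88 ± 0.51, adjusted p = 0.646, with a 95% interval of -1.97 to 0.22, which includes 0. It was -0.45 without CPA liver 2. Cyp3a11, the classic PXR target, had 14.87 to 14.98 in CPA livers, against 14.71 to 14.82 in DCB livers, with 14.51 to 14.67 in corn oil livers. Its difference was 0.17 ± 0.06, adjusted p = 0.358 (interval 0.03 to 0.31). RMA values are compressed at the top of the scale, where Cyp3a11 lies.

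Of 22 measured CAR targets 15 did not pass, and the median was -0.35. Without CPA liver 2 and DCB liver 1, 8 were lower, where 1.79% of all genes were. In the comparison of all livers none was higher and 7 were lower, against 0.775% of all genes lower. Beside Cbr3, Abcc4 and Gsta2 these were the cytochrome P450 genes Cyp2c54 (-1.38 ± 0.18, adjusted p = 0.00184), Cyp2c37 (-1.16 ± 0.20, adjusted p = 0.0131) and Cyp2c50 (-0.83 ± 0.14, adjusted p = 0.0104), and the glucuronosyltransferase Ugt2b34 (-0.47 ± 0.10, adjusted p = 0.046). Cyp2c54 had 11.59 to 12.67 in CPA livers, against 13.50 to 13.84 in DCB livers, and 11.77 to 12.36 in corn oil livers. The mean level of the list was 9.83 to 10.54 in CPA livers, against 10.76 to 11.11 in DCB livers, with 9.17 to 9.33 in corn oil livers, so all treated livers were above all vehicle livers and the CPA livers lay between. Cyp2c55 had 10.27 to 12.19 in CPA livers, against 11.84 to 12.80 in DCB livers, with 7.17 to 7.78 in corn oil livers, and did not pass (-1.12 ± 0.33, adjusted p = 0.177). Cyp2b9 did not pass either (-0.24 ± 0.12, adjusted p = 0.537). With 1 liver left out at a time, Ugt2b34 passed only without DCB liver 1 (adjusted p up to 0.147). Cyp2c and Cyp2b genes have near copies, and single members are uncertain.

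Of 12 measured PXR targets 1 was higher and 1 lower, against 0.39% and 0.775% of all genes. Ces2a, a carboxylesterase that cleaves ester drugs, had 14.23, 13.85, 14.02, 14.33 and 13.98 in CPA livers 1 to 5, against 12.55, 12.64, 12.78, 12.76 and 13.02 in DCB livers 1 to 5. Vehicle livers had 11.70 to 12.50, so all treated livers were above them and the CPA livers were the highest, with a difference of 1.33 ± 0.12, adjusted p = 7.78e-05. The lower one was Alas1, given with heme synthesis. The mean level of the PXR list overlapped, at 10.31 to 11.14 in CPA livers, against 10.62 to 10.85 in DCB livers, with 10.29 to 10.42 in corn oil livers. Without CPA liver 2 and DCB liver 1, 3 were higher and 1 was lower, against 1.12% and 1.79% of all genes. The receptor genes themselves did not pass, with differences of -0.22 ± 0.21, adjusted p = 0.856 for Nr1i2, which encodes PXR, and 0.31 ± 0.20, adjusted p = 0.711 for Nr1i3, which encodes CAR. The difference of Nr1i2 was 0.0001 without CPA liver 2, and that of Nr1i3 was 0.17 without DCB liver 2. None of the 14 xenosensors and partners passed; without the 2 livers that stood apart 1 was higher and 1 lower.

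Of 7 targets of the aryl hydrocarbon receptor 1 was lower, against 0.775% of all genes. It was Cyp1a2, a P450 that oxidises aromatic amines and caffeine. Cyp1a2 had 12.06, 11.86, 12.71, 12.13 and 12.22 in CPA livers 1 to 5, against 13.06, 13.29, 13.23, 13.68 and 13.45 in DCB livers 1 to 5. Livers given corn oil had 12.31 to 12.89, and the difference was -1.15 ± 0.16, adjusted p = 0.00279. Cyp1a1, a highly inducible target of that receptor, did not pass (-0.26 ± 0.18, adjusted p = 0.726; -0.10 without DCB liver 1). Of 17 perivenous genes Cyp1a2 was the 1 that passed in the comparison of all 10 livers. Without CPA liver 2 and DCB liver 1, 3 of them were higher and 1 lower, against 1.12% and 1.79% of all genes.

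Heme is the cofactor of every P450. Of 10 genes of its metabolism none was higher, and 4 were lower without CPA liver 2 and DCB liver 1, where 1.79% of all genes were. In the comparison of all livers 3 were lower, against 0.775% of all genes. They were Alas1, the rate-limiting enzyme of heme synthesis, Alad, which acts after it, and Fech, which inserts the iron. Alas1 had 11.26, 9.62, 9.77, 11.59 and 10.81 in CPA livers 1 to 5, against 12.60, 12.60, 11.86, 12.64 and 12.73 in DCB livers 1 to 5, with 11.11 to 12.12 in corn oil livers and a difference of -1.88 ± 0.34, adjusted p = 0.018. The mean of the DCB livers was above and that of the CPA livers below the vehicle mean. Alad differed by -0.48 ± 0.10, adjusted p = 0.0421 and Fech by -0.50 ± 0.10, adjusted p = 0.0267. In fits without 1 of the livers, Alas1 did not pass without DCB livers 2, 4 or 5 (adjusted p up to 0.063), Alad passed only without CPA liver 2 (adjusted p up to 0.138) and Fech passed only without CPA liver 2 or DCB livers 1 or 4 (adjusted p up to 0.0988).

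**Figure D2:**
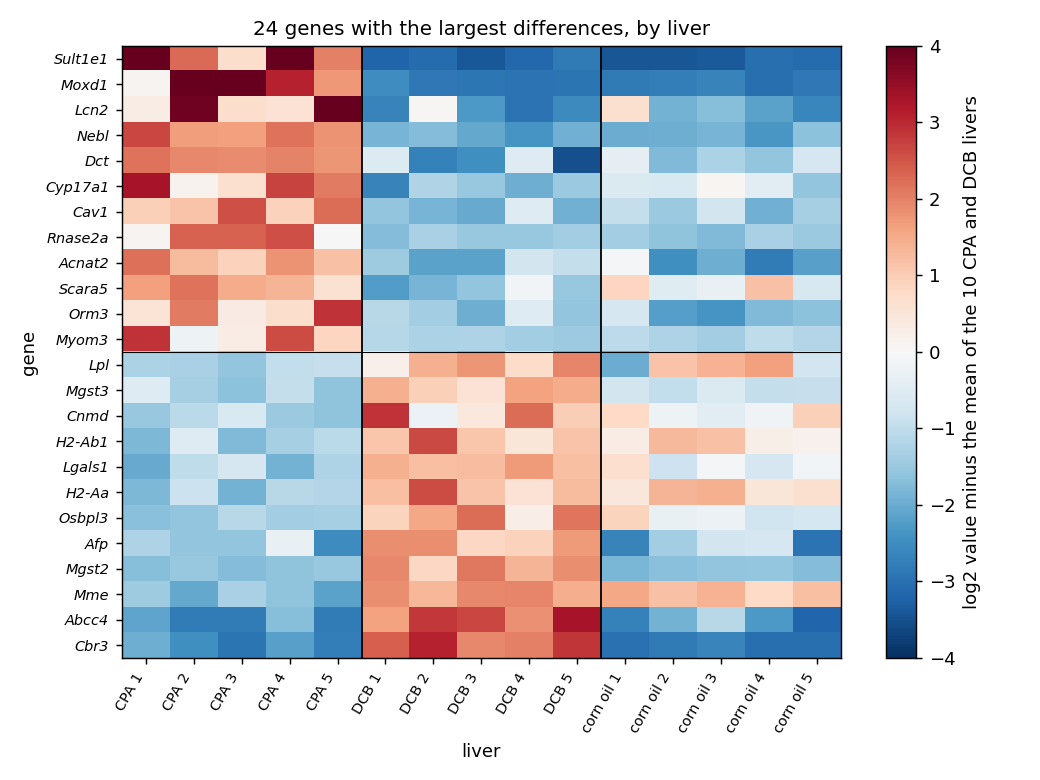
The 12 genes with the highest and the 12 with the lowest differences past the threshold, by liver (columns; CPA, DCB and corn oil livers 1 to 5). Colour gives the log2 value minus the gene's mean over the 10 CPA and DCB livers, cut at 4 in each direction, and CPA livers differ among themselves most in Sult1e1, Moxd1 and Lcn2.

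Genes of DNA replication and mitosis were lower in CPA livers than in DCB livers where they passed. Of 38 measured members of the proliferation list none was higher and 8 were lower, against 0.775% of all genes lower. The other 30 did not pass, and the median was -0.38. Without CPA liver 2 and DCB liver 1, 12 were lower, where 1.79% of all genes were. Mcm5, a subunit of the replicative helicase, had 5.85, 6.15, 6.37, 6.56 and 5.76 in CPA livers 1 to 5, against 7.25, 7.87, 7.38, 8.03 and 7.42 in DCB livers 1 to 5. Corn oil livers had 6.24 to 7.47, and the difference was -1.45 ± 0.19, adjusted p = 0.00242. Its partner Mcm6 differed by -1.40 ± 0.20, adjusted p = 0.0042. Of the mitotic genes, the cyclin Ccnb2 differed by -1.24 ± 0.20, adjusted p = 0.0104, the ubiquitin enzyme Ube2c by -1.17 ± 0.21, adjusted p = 0.0161 and the survivin gene Birc5 by -1.07 ± 0.16, adjusted p = 0.00658. The other members that were lower were Top2a (-1.02 ± 0.22, adjusted p = 0.0461), Cdk1 (-0.76 ± 0.16, adjusted p = 0.0386) and Nusap1 (-0.71 ± 0.12, adjusted p = 0.0141). Top2a, Nusap1 and Birc5 were on dim probe sets. Their means in CPA and DCB livers were 4.44 and 5.45 for Top2a, 4.40 and 5.11 for Nusap1, and 4.21 and 5.29 for Birc5. When single livers were left out, Ube2c did not pass without CPA liver 5 or DCB livers 3 or 5 (adjusted p up to 0.0522), Top2a passed only without CPA liver 2 or DCB liver 1 (adjusted p up to 0.126) and Cdk1 passed only without CPA liver 2 (adjusted p up to 0.106). In the fit to all 91 arrays Ube2c (adjusted p = 0.0898), Cdk1 (adjusted p = 0.102) and Nusap1 (adjusted p = 0.0919) did not pass.

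The mean level of the proliferation list was 5.52 to 5.69 in CPA livers, against 6.03 to 6.26 in DCB livers, with 5.65 to 6.02 in corn oil livers. The CPA livers were below every DCB liver. Mki67, the antigen Ki-67 of cycling cells, had 4.78, 5.01, 4.86, 4.72 and 4.76 in CPA livers 1 to 5, against 4.97, 6.55, 6.24, 5.32 and 6.22 in DCB livers 1 to 5, with 5.07 to 5.69 in corn oil livers. It did not pass (-1.04 ± 0.25, adjusted p = 0.0846), and passed without CPA liver 2 and DCB liver 1 (adjusted p = 0.00502). Ccnd1, the cyclin of entry into the cell cycle, had 6.68 to 8.23 in CPA livers, against 7.09 to 9.43 in DCB livers and did not pass (-1.07 ± 0.42, adjusted p = 0.38), and passed without CPA liver 2 and DCB liver 1 (-1.63, adjusted p = 0.0184). Of 18 targets of p53 none passed. Mki67 passed without DCB liver 1 (adjusted p = 0.0093).

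Oncofetal genes are those active in fetal liver and in liver tumours. Of 9 genes on that list 2 were lower, against 0.775% of all genes. Scara5, also listed, was higher, but with a mean of 7.85 it was already expressed in the corn oil livers of adult mice. Afp, alpha-fetoprotein, had 6.41, 6.09, 6.08, 7.36 and 5.14 in CPA livers 1 to 5, against 9.53, 9.51, 8.49, 8.59 and 9.35 in DCB livers 1 to 5. Vehicle livers had 4.72 to 6.98, so DCB livers were above all vehicle livers while CPA livers overlapped them. The difference was -2.87 ± 0.34, adjusted p = 0.00113; of its 4 other probe sets 2 were lower (-2.21 and -1.96) and 2 dim ones were near 0. The heparan sulfate proteoglycan Gpc3 differed by -1.21 ± 0.23, adjusted p = 0.0253. Without single livers, Gpc3 did not pass without CPA livers 1, 4 or 5 or DCB livers 2, 3 or 5 (adjusted p up to 0.0763). Meg3, a long noncoding RNA of the imprinted Dlk1-Dio3 region, did not pass (-0.29 ± 0.15, adjusted p = 0.589), and neither did the other 3 genes of that list.

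Genes of major histocompatibility complex (MHC) class II, which show peptides to helper T cells, were lower in CPA livers where they passed. Of 8 measured members none was higher and 4 were lower, with a median of -0.94, against 0.775% of all genes lower. H2-Aa had 7.34, 8.28, 7.24, 8.03 and 7.95 in CPA livers 1 to 5, against 10.33, 11.75, 10.28, 9.72 and 10.39 in DCB livers 1 to 5. Livers given corn oil had 9.58 to 10.56, which overlapped the DCB livers, so CPA livers were the ones away from the vehicle level. The difference was -2.73 ± 0.32, adjusted p = 0.001, and its 3 other probe sets were lower too. H2-Ab1 differed by -2.59 ± 0.35, adjusted p = 0.00249 and H2-Eb1 by -1.86 ± 0.29, adjusted p = 0.00736. Cd74, the invariant chain that guides class II molecules to the endosome, had 6.41 to 6.50 in CPA livers, against 7.46 to 9.28 in DCB livers and differed by -1.60 ± 0.27, adjusted p = 0.0121. Averaged over its members, the list had 5.67 to 6.23 in CPA livers, against 6.63 to 7.79 in DCB livers, with 6.65 to 7.12 in corn oil livers, and each of these calls held without any 1 liver.

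The promoters of H2-Aa and H2-Eb1 are shown because both genes were lower and both hold the Y box, a CCAAT-type element of class II promoters, searched as CTGATTGG on both strands. Of the 5 list members with a RefSeq promoter 3 held it, as did 5.87% of all 14452 genes with a promoter, 12.6% of 111 lower genes and 0 of 57 higher genes. A match is a description only. Capitals mark the Y box, which starts 51 bases before the gene start in H2-Aa, at chr17:34287774-34288073 on the minus strand, and 62 bases before it in H2-Eb1, at chr17:34305617-34305916 on the plus strand (GRCm38.p6).
H2-Aa: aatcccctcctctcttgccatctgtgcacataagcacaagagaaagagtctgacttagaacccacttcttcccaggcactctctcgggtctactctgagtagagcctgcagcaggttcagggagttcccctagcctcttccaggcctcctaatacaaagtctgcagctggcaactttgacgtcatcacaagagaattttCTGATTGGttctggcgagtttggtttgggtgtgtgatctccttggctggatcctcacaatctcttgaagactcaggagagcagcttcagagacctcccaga
H2-Eb1: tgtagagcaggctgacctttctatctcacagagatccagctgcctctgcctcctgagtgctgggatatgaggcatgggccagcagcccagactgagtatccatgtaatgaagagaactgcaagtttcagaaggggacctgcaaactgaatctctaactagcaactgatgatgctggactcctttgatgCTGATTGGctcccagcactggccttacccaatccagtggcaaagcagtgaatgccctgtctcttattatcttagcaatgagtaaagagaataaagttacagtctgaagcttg

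Of the macrophage and lymphocyte markers only Mrc1, Ighm and Jchain were lower, where 0.775% of all genes were. Marco, the macrophage marker with the largest difference, went the other way (1.24) and did not pass. Of 18 markers of Kupffer cells and other macrophages Mrc1, the mannose receptor, was lower (-0.91 ± 0.16, adjusted p = 0.0169), with a list median of -0.43, and the mean level of the list was 7.55 to 8.32 in CPA livers, against 7.78 to 8.80 in DCB livers, with 7.58 to 8.49 in corn oil livers. Of 15 lymphocyte markers 2 were lower, the antibody genes Ighm (-1.37 ± 0.24, adjusted p = 0.0161) and Jchain (-1.36 ± 0.27, adjusted p = 0.035), and without CPA liver 2 and DCB liver 1, 4 were lower. The mean level of that list was 5.24 to 5.62 in CPA livers, against 5.53 to 6.23 in DCB livers, with 5.35 to 5.74 in corn oil livers. Their part in the class II result was not tested. Of 18 interferon response genes 2 were lower, the deubiquitinase Usp18 (-1.72 ± 0.34, adjusted p = 0.0325) and the antiviral tether Bst2 (-0.66 ± 0.13, adjusted p = 0.0367). Without CPA liver 2 and DCB liver 1, 5 were lower, where 1.79% of all genes were. The list median was -0.68, and its level was 6.55 to 7.77 in CPA livers, against 7.13 to 8.78 in DCB livers, with 7.34 to 7.80 in corn oil livers, with DCB liver 2 above all other livers. With 1 liver left out at a time, Mrc1 did not pass without CPA liver 4 or DCB liver 5 (adjusted p up to 0.0611), Ighm did not pass without CPA liver 5 (adjusted p up to 0.0547), Jchain passed only without CPA liver 2 or DCB liver 4 (adjusted p up to 0.1), Usp18 did not pass without CPA livers 1, 4 or 5 or DCB livers 2, 3 or 5 (adjusted p up to 0.0854) and Bst2 passed only without CPA liver 2 or DCB liver 1 (adjusted p up to 0.0999). In the fit to all 91 arrays Mrc1 (adjusted p = 0.0783), Ighm (adjusted p = 0.159) and Jchain (adjusted p = 0.129) did not pass.

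**Figure D3:**
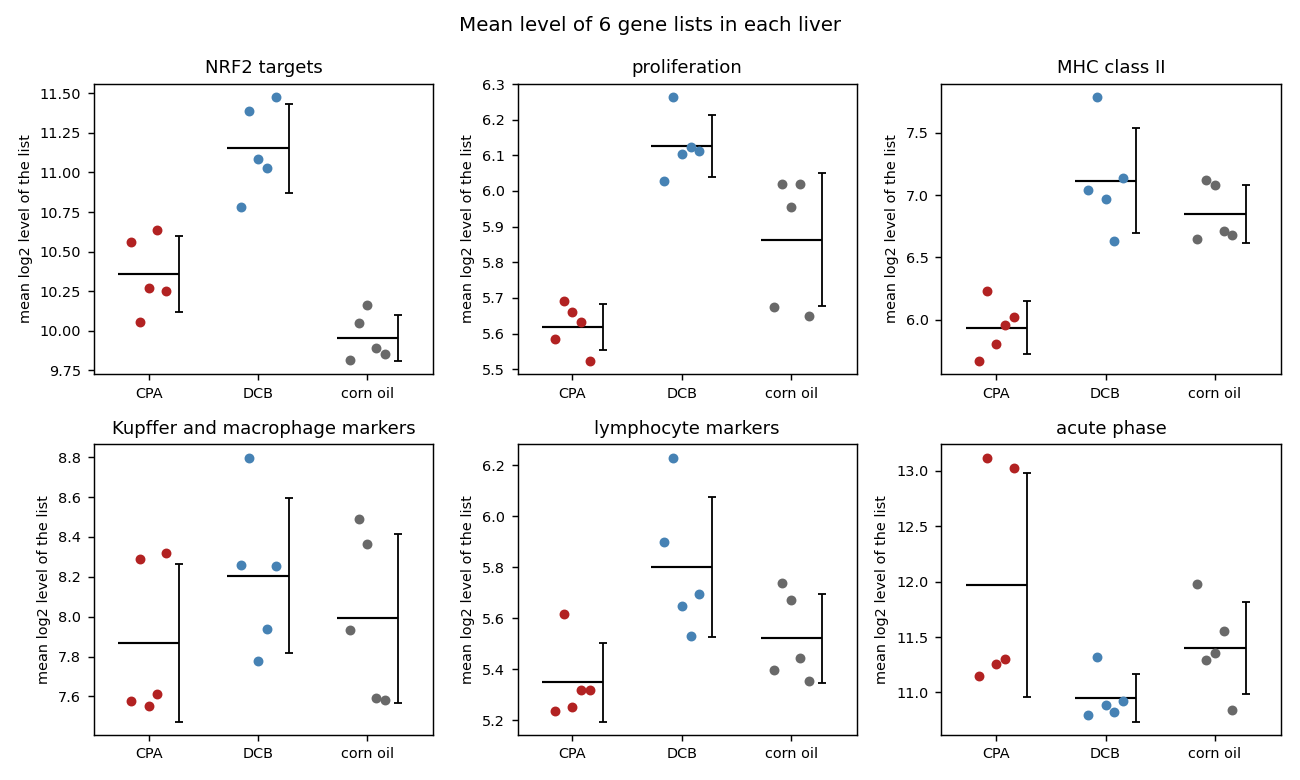
Mean log2 level of the measured members of 6 gene lists in each liver (points; CPA, DCB and corn oil, n = 5 each), with the group mean (line) and SD (bar); each panel has its own axis, which does not start at 0. CPA livers lie below all DCB livers for NRF2 targets, proliferation and MHC class II, and overlap them for macrophage, lymphocyte and acute phase genes.

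Of 16 markers of stellate cells and matrix 2 were lower, the collagen gene Col3a1 and the matrix protein gene Sparc, against 0.775% of all genes. Without CPA liver 2 and DCB liver 1, 3 were lower, where 1.79% of all genes were. Col3a1 averaged 8.53 ± 0.65 in CPA livers and 10.35 ± 0.43 in DCB livers (SD, n = 5 each; difference -1.82 ± 0.29, adjusted p = 0.00736), with a mean of 10.02 in corn oil livers. Sparc differed by -1.07 ± 0.16, adjusted p = 0.00447. None of 12 endothelial markers passed, with a median of -0.44 and mean levels of 7.11 to 7.57 in CPA livers, against 7.59 to 7.78 in DCB livers, with 7.31 to 8.13 in corn oil livers. The part of these markers in the matrix result was not tested. None of 6 cholangiocyte markers and none of 11 neutrophil and blood markers passed. Lgals1, the sugar-binding galectin-1, had 8.05 to 9.41 in CPA livers, against 11.28 to 11.77 in DCB livers (-2.72 ± 0.23, adjusted p = 6.83e-05), and Cnmd, chondromodulin, had 5.07 to 6.06 in CPA livers, against 6.46 to 9.56 in DCB livers (-2.52 ± 0.47, adjusted p = 0.0236). Mme, the peptidase neprilysin, had 6.34, 5.73, 6.46, 6.15 and 5.64 in CPA livers 1 to 5, against 9.64, 9.09, 9.71, 9.72 and 9.24 in DCB livers 1 to 5, with 8.57 to 9.32 in corn oil livers. Its difference was -3.41 ± 0.19, adjusted p = 1.12e-06, with DCB livers overlapping the vehicle range and CPA livers below it. In fits without 1 of the livers, Cnmd did not pass without CPA livers 1, 4 or 5 or DCB livers 4 or 5 (adjusted p up to 0.0711).

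Acute phase genes, which the liver secretes more of during inflammation, were higher where they passed. Of 25 measured members 3 were higher, against 0.39% of all genes. None was lower and 22 did not pass, with a median of 0.65. Lcn2, a siderophore-binding protein, had 9.02, 12.61, 9.42, 9.31 and 13.64 in CPA livers 1 to 5, against 6.04, 8.75, 6.41, 5.76 and 6.18 in DCB livers 1 to 5. Its CPA values were highest in livers 2 and 5, and DCB liver 2 was above the other 4 DCB livers. Corn oil livers had 6.09 to 9.35, and the difference was 4.17 ± 0.86, adjusted p = 0.0397. Orm3, an orosomucoid, had 8.31, 9.84, 8.11, 8.49 and 10.66 in CPA livers 1 to 5, against 6.67, 6.40, 5.81, 7.26 and 6.18 in DCB livers 1 to 5 (2.62 ± 0.44, adjusted p = 0.0118), again highest in CPA livers 2 and 5. Lbp, which binds bacterial lipopolysaccharide, differed by 1.44 ± 0.21, adjusted p = 0.005. When single livers were left out, Lcn2 did not pass without CPA liver 5 or DCB livers 1, 3, 4 or 5 (adjusted p up to 0.114). Without CPA liver 2 and DCB liver 1, 3 members passed and Lcn2 did not (adjusted p = 0.0527). The mean level of the list was 11.15 to 13.12 in CPA livers, against 10.80 to 11.32 in DCB livers, with 10.84 to 11.98 in corn oil livers, so the groups overlapped. CPA livers 2 and 5 had 13.12 and 13.02. CPA livers 1, 3 and 4 had 11.15, 11.26 and 11.30, which lay within the corn oil range.

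Most listed genes of fat, sterol and bile acid metabolism did not pass. Over all genes 0.39% were higher and 0.775% lower. Of 41 targets of PPARα, the fatty acid sensor, 3 were lower and none higher (4 lower without CPA liver 2 and DCB liver 1), with a median of -0.24: the peroxisomal enzymes Ehhadh (-1.22 ± 0.21, adjusted p = 0.0159) and Acaa1b (-1.12 ± 0.17, adjusted p = 0.00668) and the fatty acid transporter Cd36 (-1.22 ± 0.23, adjusted p = 0.0253). Cyp4a14, a highly inducible target of that receptor, had 12.05, 6.08, 10.05, 8.01 and 7.27 in CPA livers 1 to 5, against 10.20, 11.53, 12.11, 11.51 and 11.70 in DCB livers 1 to 5 and did not pass (-2.72 ± 0.86, adjusted p = 0.225; adjusted p = 0.0451 in the fit to all 91 arrays), with values that spread more widely in CPA livers. The peroxisomal transporter Abcd2 (-1.29 ± 0.48, adjusted p = 0.339) and the hormone Fgf21 (-1.30 ± 0.63, adjusted p = 0.533) did not pass either. Without single livers, Ehhadh did not pass without DCB livers 3 or 5 (adjusted p up to 0.0562) and Cd36 did not pass without DCB livers 2, 3, 4 or 5 (adjusted p up to 0.0807). Cyp4a14 passed without CPA liver 1 (adjusted p = 0.024).

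Of 20 genes of sterol synthesis Fdps, farnesyl diphosphate synthase, was higher (1.34 ± 0.20, adjusted p = 0.00625), against 0.39% of all genes, and none was lower. Without CPA liver 2 and DCB liver 1, 2 were higher and 1 lower. None of 19 lipogenesis genes passed, and 1 was higher without these 2 livers. None of 19 bile acid genes passed, with a median of 0.27 and 17 differences above 0. Leaving out CPA liver 2 and DCB liver 1, 4 were higher, where 1.12% of all genes were. Cyp7a1, the rate-limiting enzyme of bile acid synthesis, had 9.26 to 11.21 in CPA livers, against 8.02 to 10.87 in DCB livers (0.88 ± 0.45, adjusted p = 0.57; 0.53 without DCB liver 2). Lpl, which frees fatty acids from lipoproteins, had 8.64, 8.62, 8.32, 8.93 and 8.97 in CPA livers 1 to 5, against 10.09, 11.32, 11.66, 10.63 and 11.84 in DCB livers 1 to 5 (-2.41 ± 0.28, adjusted p = 0.00107), and its other probe set was lower too (-2.30). Osbpl3, an oxysterol-binding protein, had 4.56 to 5.13 in CPA livers, against 6.51 to 8.46 in DCB livers (-2.83 ± 0.31, adjusted p = 6.73e-04).

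Of 21 clock genes and their outputs Nfil3, a repressor, was higher (1.06 ± 0.20, adjusted p = 0.0262). Wee1, a kinase that delays mitosis, was lower (-0.95 ± 0.17, adjusted p = 0.0188). Over all genes 0.39% were higher and 0.775% lower. Without CPA liver 2 and DCB liver 1, 1 clock gene was higher and 2 were lower. Dbp, an output whose level turns over each day, did not pass (-1.23 ± 0.31, adjusted p = 0.0983), and its other probe set did (-1.12, adjusted p = 0.0409). None of 18 glucocorticoid response genes passed, and 3 were higher without CPA liver 2 and DCB liver 1, where 1.12% of all genes were. Gadd45b, a stress gene, did not pass (0.93 ± 0.40, adjusted p = 0.444; 0.56 without CPA liver 2). With 1 liver left out at a time, Nfil3 did not pass without CPA livers 3, 4 or 5 or DCB livers 2 or 5 (adjusted p up to 0.0754) and Wee1 did not pass without CPA livers 3 or 4 or DCB livers 2 or 5 (adjusted p up to 0.0612). Dbp passed without CPA liver 5 (adjusted p = 0.00694).

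Of 16 urea cycle and periportal genes Bhmt, which makes methionine from homocysteine, was higher (0.70 ± 0.10, adjusted p = 0.0031), and without CPA liver 2 and DCB liver 1, 3 were higher. Over all genes 0.39% were higher and 0.775% lower. Of 12 glucose genes Ppp1r3g, a glycogen-targeting phosphatase subunit, was lower (-2.29 ± 0.43, adjusted p = 0.0237). Leaving out CPA liver 2 and DCB liver 1, 5 were higher and 1 lower. In that fit 1.12% of all genes were higher and 1.79% lower. None of 22 genes of the unfolded protein response passed, and 1 was lower without these 2 livers. Of 11 genes on the glucuronosyltransferase list 2 were lower, the transferase Ugt2b34 and Ugdh, which makes the donor and is not itself a transferase. Of 18 transporters Abcc4 was lower. Without the same 2 livers, 2 genes of the glucuronosyltransferase list were higher and 3 lower, and 3 transporters were higher and 1 lower. In fits without 1 of the livers, Ppp1r3g did not pass without CPA livers 3, 4 or 5 or DCB livers 2, 3 or 5 (adjusted p up to 0.076).

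**Figure D4:**
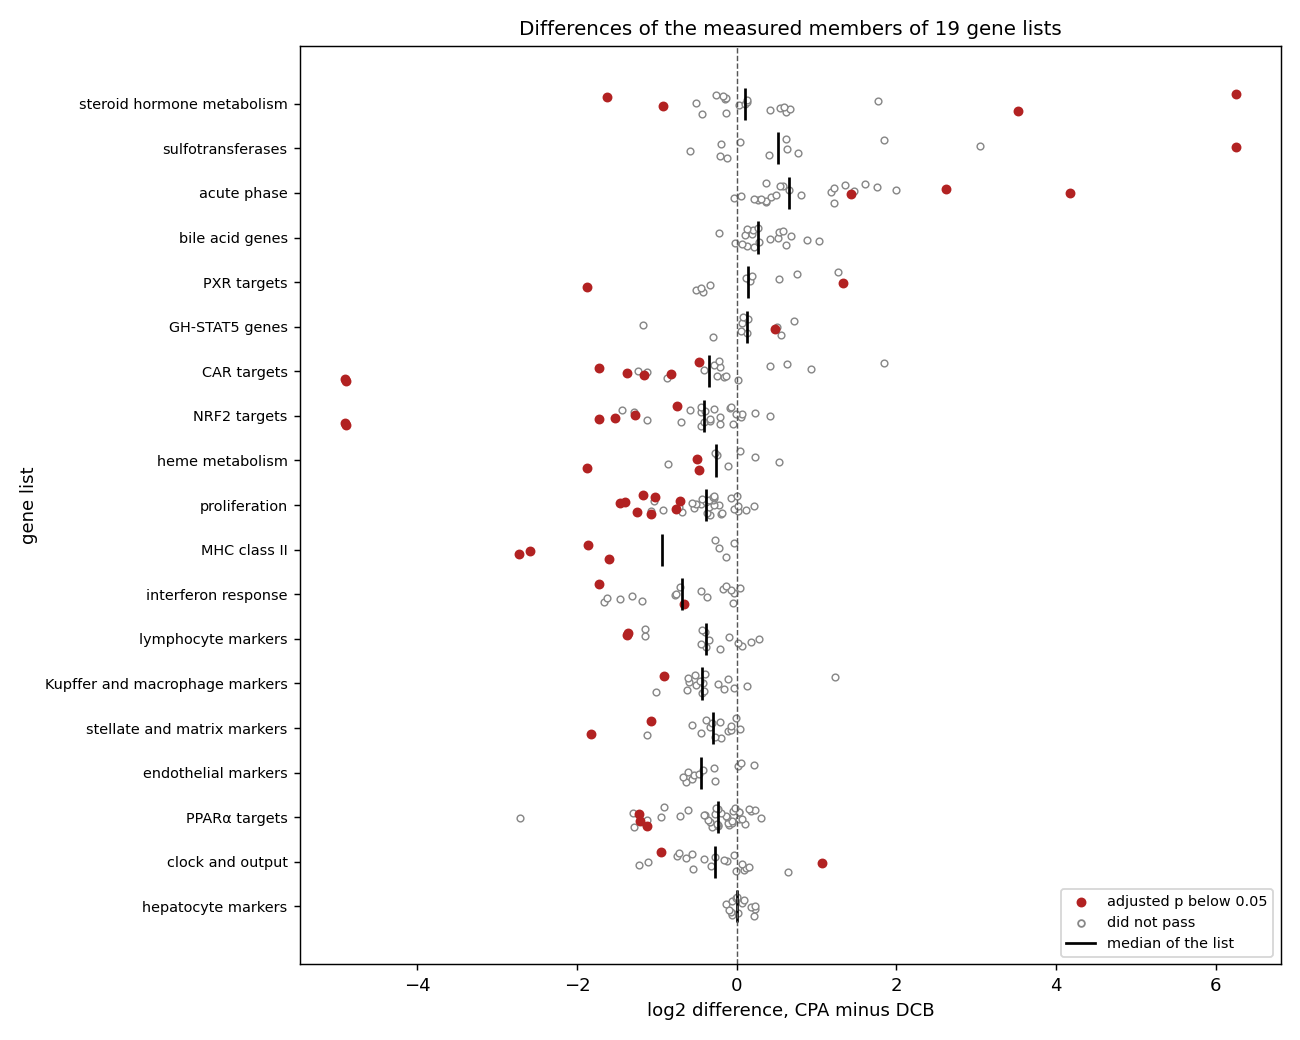
Log2 difference, CPA minus DCB, of each measured member of 19 gene lists (points), with members past an adjusted p of 0.05 filled and the list median as a black line. Members of the MHC class II, proliferation and NRF2 lists that passed lie below 0, and acute phase members that passed lie above 0.

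Across the 37 lists 11 had no member past the threshold, and 56 of the 212 called genes were on at least 1 list. Genes that did not pass are not shown to be alike. The 95% interval of the difference lay within 1 log2 unit of 0 for 17317 genes (95.2%) and within 0.5 units for 12203 genes (67.1%).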

How the data were processed

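RNA of whole liver was hybridised to Affymetrix mouse arrays, 1 array for each mouse. The authors deposited log2 values for each probe set, computed by RMA per the submitters' processing notes. RMA corrects background, equalises the arrays and combines the probes of a set, and its software and a genome build are not given in the sources used here. Groups came from the labels. Of 45037 probe sets 34945 carried 1 gene symbol in the platform annotation, 932 carried several and 9160 were unnamed here, and the last 2 kinds were not used. Where a gene had several such probe sets, as 9010 of the 18193 genes did, the brightest on average across the 91 arrays stood for it. A means model was fitted to the 10 arrays with limma 3.58.1 in R 4.3.3, with moderated variances that follow a mean-variance trend. The contrast was CPA minus DCB, the test was two-sided, and p-values were adjusted by Benjamini-Hochberg over all 34945 probe sets, with a threshold of 0.05. Errors beside differences are standard errors. The number of arrays limits the precision. The fit was tested on simulated data.

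The samples, the 37 gene lists (560 of 624 members measured) and the settings were chosen with earlier results of these data known. Genes named include the 12 highest and 12 lowest differences past the threshold without overlap of the groups (clone names passed over). They also include 24 fixed genes, of which 23 were measured. List members past the threshold are named, also beyond the 6 largest differences of a list. Members that did not pass are named only in part, so the naming leans toward those that passed. Larger differences left out include Sult2a2 (3.05), Saa2 (1.76), Cxcl9 (-1.65), Slc7a11 (-1.43) and Nqo1 (-1.29). Nqo1 (limma, adjusted p = 0.0597) passed in the fit to all arrays of the series (adjusted p = 2.18e-04). The labels give no pairing of mice by replicate number, and none was used in the main fit. Deviations of same-numbered livers from their group means correlated at -0.229, -0.055, 0.267, -0.043 and 0.113 over probe sets, which cannot settle whether the numbers pair the mice. Other settings were other sets of arrays, probe set rules, moderation, centring, array weights, the replicate number as a block, and each liver left out. The labels give no batch or scan date.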

Additional observations from a re-analysis of the deposited data

Results flagged for a closer look

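The values of 42 genes were screened in the 3 groups of 5 livers for a sample far from the others, and 5 of 126 gene and group pairs were marked; chance marks about 1 in 20. Lcn2 in DCB liver 2 was 8.75, against 5.76 to 6.41 in the other DCB livers, and Lcn2 in corn oil liver 1 was 9.35, against 6.09 to 7.01 in the other corn oil livers. Moxd1 in DCB liver 1, one of the 2 livers that stood apart in correlation, was 4.41, against 3.96 to 4.04 in the others. Cav1 in DCB liver 4 was 7.99, against 6.49 to 6.92, and still below the lowest CPA liver at 9.41. Cyp2b9 in DCB liver 2 was 4.13, against 4.50 to 4.63.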

How the results depend on the processing

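Of 212 genes called, 71 higher and 141 lower (308 probe sets), no call changed direction under any setting tried. A fit to all 91 arrays called 666 genes (274 higher, 392 lower; 1010 probe sets), 193 of them shared with the 212. With the corn oil arrays in the fit 328 genes were called (126 higher; 490 probe sets; 199 shared), and with array weights 548 (188 higher, 360 lower, 182 at least 2-fold; 878 probe sets; 212 shared). Without CPA replicate 2 and DCB replicate 1, a setting chosen after seeing the data, 529 genes were called (204 higher, 325 lower; 813 probe sets). Leaving out 1 liver gave 118 to 346 genes, 36 to 134 higher, 82 to 212 lower, 81 to 160 at least 2-fold, and 165 to 509 probe sets; the lowest counts came without DCB replicate 5 and the highest without CPA replicate 2. With the replicate number as a block, 179 genes were called, 149 of them shared, though the labels give no pairing of mice by number. The other settings (1 probe set per gene, the mean of probe sets, dim probe sets left out, no trend, robust moderation, centring on array medians) gave 184 to 239 genes. The difference of Nr1i2, which did not pass, ran from -0.33 to 0.0001 when 1 liver was left out, above 0 without CPA replicate 2. Of the called genes named in the text, some did not pass in other settings. The fit to all 91 arrays lost 8 (Cdk1, Ighm, Jchain, Mrc1, Nnmt, Nusap1, Slc22a27, Ube2c) and the fit with corn oil arrays 4 (Jchain, Psat1, Psph, Slc22a27). The mean of probe sets lost 11 (Alad, Cd36, Fech, Hsd17b11, Igf1, Ighm, Lcn2, Nusap1, Susd4, Top2a, Wee1), the replicate block 14 (Alad, Bst2, Cnmd, Ehhadh, Fech, Gsta2, Hspb1, Igf1, Jchain, Lipg, Psph, Slc22a27, Susd4, Ugt2b34) and robust moderation 9 (Alad, Cnmd, Gsta2, Hspb1, Lcn2, Myom3, Ppp1r3g, Susd4, Ugt2b34). No trend lost 5 (Hspb1, Lcn2, Susd4, Top2a, Ugt2b34), centring 2 (Alad, Ugt2b34) and leaving out dim probe sets 1 (Susd4). That last count does not hold genes whose own probe set was left out as dim, such as Slc22a27, Nusap1, Birc5 and Top2a. With dim probe sets left out, 175 of the 212 calls remained. Lcn2 and Lipg did not pass without CPA replicate 2 and DCB replicate 1. The cause of these shifts was not tested. Depth has no counterpart on arrays; for dim probe sets, such as both other sets of Nebl, a difference may be missed.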

Other observations

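Of the called genes 156 were on no list, 58 of them higher and 98 lower in CPA livers. The genes given here were chosen after their values were seen. Insig2, which holds the sterol sensor in the endoplasmic reticulum, had 11.76 to 12.27 in CPA livers, against 10.67 to 11.26 in DCB livers (1.19 ± 0.14, adjusted p = 0.001; limma, n = 5 each, as for all values here). Nnmt, which methylates nicotinamide, was higher by 1.53 ± 0.20, adjusted p = 0.00209, and the apolipoprotein Apoa4 by 1.64 ± 0.24, adjusted p = 0.00458. The clotting factors F9 (0.80 ± 0.11, adjusted p = 0.00372) and F11 (0.84 ± 0.14, adjusted p = 0.0104) were higher too. The phospholipid transfer protein Pltp (-1.52 ± 0.19, adjusted p = 0.00184) and the endothelial lipase Lipg (-0.99 ± 0.21, adjusted p = 0.0458) were lower, as were the serine synthesis enzymes Psat1 (-1.87 ± 0.35, adjusted p = 0.025) and Psph (-0.82 ± 0.17, adjusted p = 0.0409). Cbr1, a carbonyl reductase like Cbr3, differed by -1.02 ± 0.17, adjusted p = 0.0132, and the glutathione transferase Gstt2 by -1.30 ± 0.21, adjusted p = 0.00797. The matrix protein Postn (-1.97 ± 0.20, adjusted p = 3.28e-04), the heme transporter Slc48a1 (-1.53 ± 0.20, adjusted p = 0.00249), the chaperone Hspb1 (-1.51 ± 0.32, adjusted p = 0.0448) and the tubulin-binding Stmn1 (-1.39 ± 0.19, adjusted p = 0.00287) were lower. When single livers were left out, Lipg passed only without CPA livers 3 or 5 (adjusted p up to 0.118), Psat1 did not pass without CPA livers 3, 4 or 5 or DCB livers 2, 3 or 5 (adjusted p up to 0.0774), Psph passed only without CPA liver 2 (adjusted p up to 0.113) and Hspb1 did not pass without CPA livers 1, 4 or 5 or DCB livers 2, 4 or 5 (adjusted p up to 0.137). In the fit to all 91 arrays Nnmt (adjusted p = 0.118) did not pass.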
